A study of Mus musculus with 4 samples.

Results

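The library labelled TKO, bone marrow that lacked mDia1, miR-146a and IL-6 together, was set against the library labelled TWT, wild-type marrow, to describe what still differed from wild type once all 3 genes were lost. Every barcode with 500 to 4000 detected genes and at most 15% of its unique molecular identifiers (UMIs, each one a captured mRNA molecule) on mitochondrially encoded genes was taken, which left 7560 TKO cells and 6794 TWT cells, 14354 of the 31457 filtered cells in the 4 libraries of the series. All libraries came from 12-month-old C57/B6 mice, as marrow of femur and tibia with the red cells removed, and were sequenced by droplet single-cell RNA-seq from the 3′ end. TWT carried IL6+/+, mDia1+/+ and miR146a+/+, and TKO carried IL6-/-, mDia1-/- and miR146a-/-. The remaining libraries were IL6 KO, with IL6-/- and the other genes wild type, and DKO, with mDia1-/- and miR146a-/- on IL6+/+. The knockouts were present in every cell of the animal, so no value here is tied to loss in 1 cell type, and the labels and methods do not state how many animals each library pooled. Each genotype was 1 library, so every difference between TKO and TWT is a size with no replicate check and no test, and the intervals given cover counting error only.

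The TWT library held 43211935 UMIs in its filtered cells and the TKO library 48796624, with medians of 4585.5 and 4762 UMIs and 1372 and 1417 genes a cell. Mitochondrially encoded genes took 2.66% of TWT UMIs and 2.27% of TKO UMIs. TWT and TKO shared 14 kept barcodes. Xist, the RNA that silences 1 X chromosome of female cells, was counted 7 times in TWT, 1 in TKO, 2 in DKO and 49030 in IL6 KO, so the IL6 KO library stood apart from the other 3 in this gene. Barcodes called as doublets were 2.24% of TWT and 2.08% of TKO cells.

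mDia1 is the formin encoded by Diaph1, which nucleates and lengthens actin filaments. miR-146a is induced by NF-kB and pairs with the mRNAs of Traf6 and Irak1, adaptors that carry signals from Toll-like and interleukin-1 receptors, and so acts as a brake on innate immune signalling. IL-6 is a cytokine that signals through its receptor and gp130 to STAT3, and in the marrow it is known for driving myelopoiesis, plasma cell survival and the acute-phase response.

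The mature miR-146a sequence shows which part of the lost regulator reads its targets, and miR-146b, which TKO mice kept, has the same seed. The seed, bases 2 to 8, is in capitals, and positions and sequences are those of RefSeq on GRCm38.p6, chr11:43374435-43374456 on the minus strand for miR-146a and chr19:46342790-46342811 on the plus strand for miR-146b.
mmu-miR-146a-5p: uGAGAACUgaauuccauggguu
mmu-miR-146b-5p: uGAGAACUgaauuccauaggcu
A site for this seed in an mRNA reads AGTTCTC on the sense strand. It was present in the 3′ untranslated region of 2339 of 20987 annotated genes, 11.1%. Traf6 held 4 sites, Irak1 held 2 and Irak2 held 2, and the first sites of these textbook targets are printed with their upstream bases, sites in capitals, at chr2:101697939-101697966 (plus strand), chrX:74015393-74015420 (minus strand) and chr6:113694113-113694140 (plus strand) on GRCm38.
Traf6: aagttaccgctctggtgttgAGTTCTCa
Irak1: ccctcagactcagaggtcaaAGTTCTCa
Irak2: ctgttgcccccaaacctcttAGTTCTCc
Over all cells, these mRNAs were less than 2-fold apart, with Irak1 and Traf6 lower in TKO than in TWT and Irak2 nearly equal. Levels are given in CPM, UMI counts scaled to a total of 1000000 over the cells named. Irak1 had 51.5 CPM in TWT and 43.3 in TKO over all cells, Irak2 had 15.2 and 15.04, and Traf6 had 10.2 and 9.43. Within classes the order could turn, as for Irak2 in mature neutrophils, with 18.95 CPM in TWT and 21.8 in TKO. Over all cells, the 283 measured genes with a site had a median log2 ratio of TKO to TWT of 0.04 and the 2155 without a site 0.09, and none of the genes with a site differed 2-fold. Genes with a site also had longer 3′ untranslated regions, with a median of 2786 bases against 868. A match of letters is a description and not a measured binding site.

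Diaph1 mRNA, chr18:37843601-37935476 on the minus strand of GRCm38, checked the labels. It had 192 CPM in TWT, 203 in IL6 KO, 12.9 in TKO and 11.3 in DKO over all cells, so both libraries labelled mDia1-/- were low. In mature neutrophils it went from 348 CPM in TWT to 26.6 in TKO, in classical monocytes from 274 to 10.3, and in T cells from 158 to 6.44. It was lower in TKO in 12 of the 12 cell classes in which genes were compared, with log2 ratios from -4.61 to -2.97.

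Il6 mRNA, chr5:30013114-30019981 on the plus strand, was not lost in the IL6-/- libraries. It had 51 UMIs in TWT, 548 in TKO, 563 in IL6 KO and 20 in DKO, so both libraries labelled IL6-/- held more than both labelled IL6+/+. In TWT, 50 of the 51 UMIs were in basophils and mast cells, where the level was 144 CPM (106.9 to 190, exact Poisson 95% interval), against 137 in TKO and 116.5 in IL6 KO. Mature neutrophils held 0 Il6 UMIs in TWT and in DKO, 336 in TKO and 353 in IL6 KO. With 0 in TWT taken at a floor of 3 counts per library, Il6 was at least 99.4-fold higher in TKO mature neutrophils, and 293 of 2479 of those cells held a UMI. Immature neutrophils, at least 14.1-fold higher, and classical monocytes, at least 18.1-fold higher, showed the same from 51 and 62 TKO UMIs. A 3′ tag counts mRNA that ends as the gene ends and does not show whether protein can be made from it, so these counts do not check the IL-6 label.

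Cells were assigned to 20 classes by sets of marker genes. The leading genes of each class held 3 or more of its own markers, except in plasma cells and in stromal and endothelial cells. Plasma cells were led by immunoglobulin genes and Jchain, and the stromal and endothelial cells were 20 in TWT and 6 in TKO. The gate itself needed at least 3 of these markers in a cell, so their lead is no independent check of the classes. The largest classes took like shares in both libraries. Mature neutrophils were 33.3% of TWT and 32.8% of TKO cells (ratio of TKO to TWT 0.984, 0.929 to 1.04), immature neutrophils 20.7% and 21.9%, mature B cells 11.8% and 11.5%, and classical monocytes 7.79% and 7.70%. The non-classical monocytes and pro/pre-B cells took larger shares in TKO. Pro/pre-B cells, the precursors that rearrange immunoglobulin genes, were 223 cells or 3.28% of TWT and 455 cells or 6.02% of TKO (ratio 1.83, 1.56 to 2.16). They were 6.06% of IL6 KO, and no DKO cell was assigned to them. Non-classical monocytes, which patrol vessel walls, were 85 cells or 1.25% of TWT and 179 cells or 2.37% of TKO (ratio 1.89, 1.45 to 2.48), against 1.52% of IL6 KO and 20.6% of DKO. Granulocyte-monocyte progenitors were 164 cells or 2.41% of TWT and 250 cells or 3.31% of TKO (ratio 1.37, 1.12 to 1.68). With a filter of 200 genes as the only one, that ratio was 1.11.

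Several lymphoid classes took smaller shares in TKO. Plasma cells, which secrete antibody, went from 107 cells or 1.57% of TWT to 37 cells or 0.489% of TKO (ratio 0.311, 0.208 to 0.455), with 1.35% in IL6 KO and 0.0727% in DKO. Their median depth was close, 23839 UMIs a cell in TWT and 23892 in TKO. T cells went from 323 cells or 4.75% to 194 cells or 2.57% (ratio 0.540, 0.449 to 0.647), with 2.90% in IL6 KO and 10.6% in DKO. NK cells went from 1.35% to 0.714% (ratio 0.527, 0.370 to 0.746) and innate lymphoid cells from 70 to 30 cells (ratio 0.385, 0.242 to 0.599). Plasmacytoid dendritic cells (1.94% and 2.10%), basophils and mast cells (1.09% and 1.01%) and erythroid cells (2.62% and 2.49%) had close shares. A share depends on all the others, so that a class with a larger share lowers those of the rest.

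**Figure D1:**
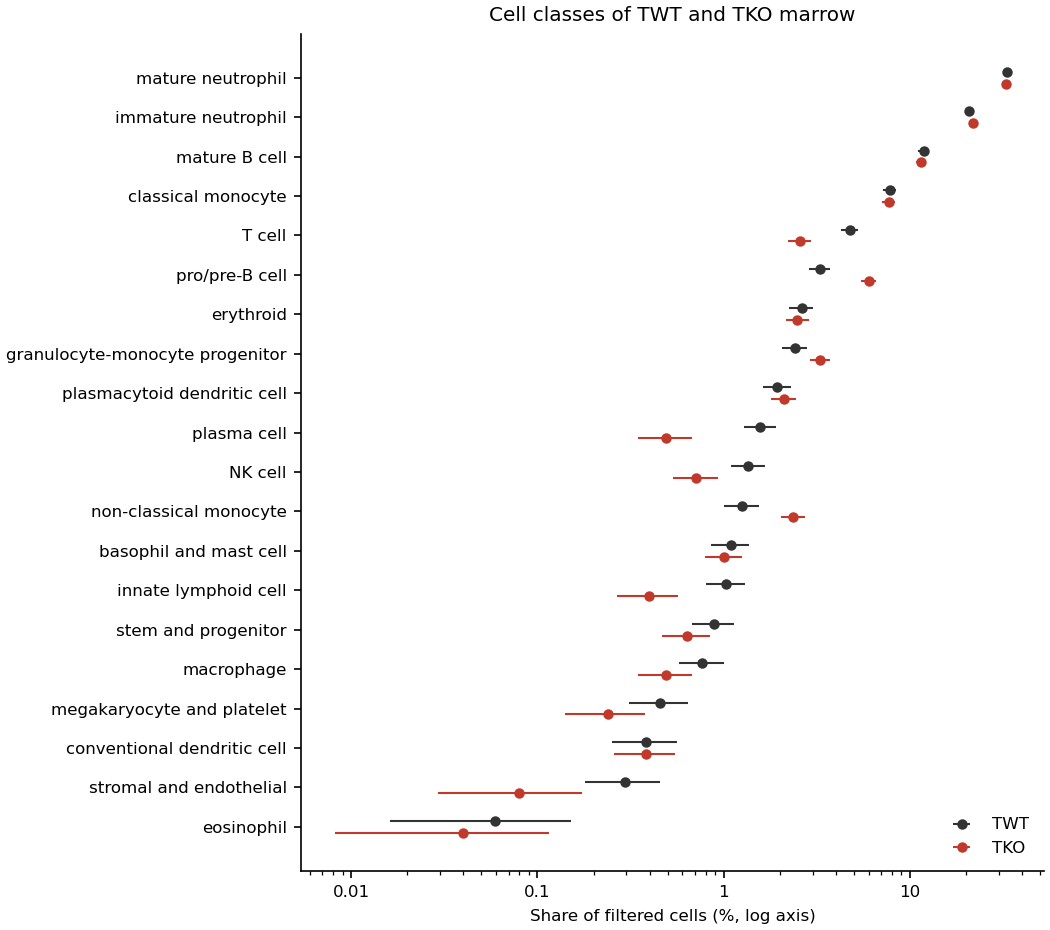
Share of filtered cells in each marker-gated class (percent, log axis) in the TWT and TKO libraries, with exact 95% binomial intervals for counting error. Non-classical monocytes and pro/pre-B cells lie to the right in TKO, and T, NK, innate lymphoid and plasma cells to the left, while the neutrophil and mature B cell points nearly coincide.

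For gene levels, UMIs were summed over the cells of a library, a gene counted as measured if it reached 50 CPM in TWT or TKO and 30 UMIs over the pair, and calls of higher or lower needed a 2-fold difference after 1 CPM was added to each side. Over all cells, 22 of 2480 measured genes were called, 0.887%, of which 4 were higher in TKO (0.161%) and 18 lower (0.726%). The same rule called 11 of 2428 genes in IL6 KO against TWT, 0.453%, and 307 of 2677 in DKO against TWT, 11.5%, and all 3 comparisons share the TWT library. With the TKO class profiles weighted by the TWT class shares, 7 genes were higher and 11 lower, and 15 of the 22 calls remained. With plasma cells left out of both libraries 3 were higher and 7 lower, and 10 of the 22 calls remained, as did 10 of 22 when the CPM of each cell was averaged instead. In these sums, fewer cells of a type and less RNA per cell cannot be told apart.

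The 4 genes higher over all cells were Pttg1, Iglc3, Tyms and Ifi27l2a. Pttg1, securin, which holds back the separation of sister chromatids until anaphase, had 23.4 CPM in TWT, 84.1 in TKO, 22.9 in IL6 KO and 76.5 in DKO (ratio of TKO to TWT 3.603, 3.36 to 3.86). Over all cells it was thus high in both libraries without mDia1 and miR-146a and low in both with them. The loss of mDia1 and that of miR-146a cannot be told apart in these libraries. Tyms, thymidylate synthase, had 43.6 CPM in TWT, 107.7 in TKO, 74.2 in IL6 KO and 36.7 in DKO. Ifi27l2a, an interferon-induced gene, had 115.8, 246, 142.5 and 32.2 CPM in the same order, so TKO was the highest of the 4 libraries for both genes. Iglc3, an immunoglobulin lambda constant segment, had 108.5 CPM in TWT and 286 in TKO, but 8446 of its 13958 TKO UMIs were in 1 cell.

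Immunoglobulin genes made up many of the genes lower over all cells. Ighg2c, the heavy chain constant region of IgG2c, had 20143 UMIs in 394 TWT cells and 2 UMIs in 1 TKO cell, against 474 CPM in IL6 KO and 0.549 in DKO. Its log2 ratio, -8.81, was the lowest over all cells. Ighg2b fell from 80336 to 13623 UMIs (log2 ratio -2.73), Iglc1 by 2.33 and Ighm by 2.24 on the log2 scale. At the TWT class shares Ighg2b was at -1.08, Ighm at -1.35 and Iglc1, no longer called, at -0.81, while Igkc went from -1.54 to 0.031. Plasma cells held 6.32% of all TWT UMIs and 1.84% of TKO UMIs. Of the Iglc2 and Ighd UMIs of TWT, 14364 of 36162 and 7132 of 10398 were in 1 cell each. Among the other genes, Hist1h2ap, a core histone, went from 243 to 87.3 CPM, and Mt1, a zinc-binding metallothionein, from 88.5 to 31.6 CPM. Txndc5, an endoplasmic reticulum chaperone and a plasma cell marker, went from 116.3 to 47.1 CPM, and Prg2, an eosinophil granule protein, from 59.9 to 27.2 CPM, but at the TWT class shares their log2 ratios were -0.31 and 0.02.

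**Figure D2:**
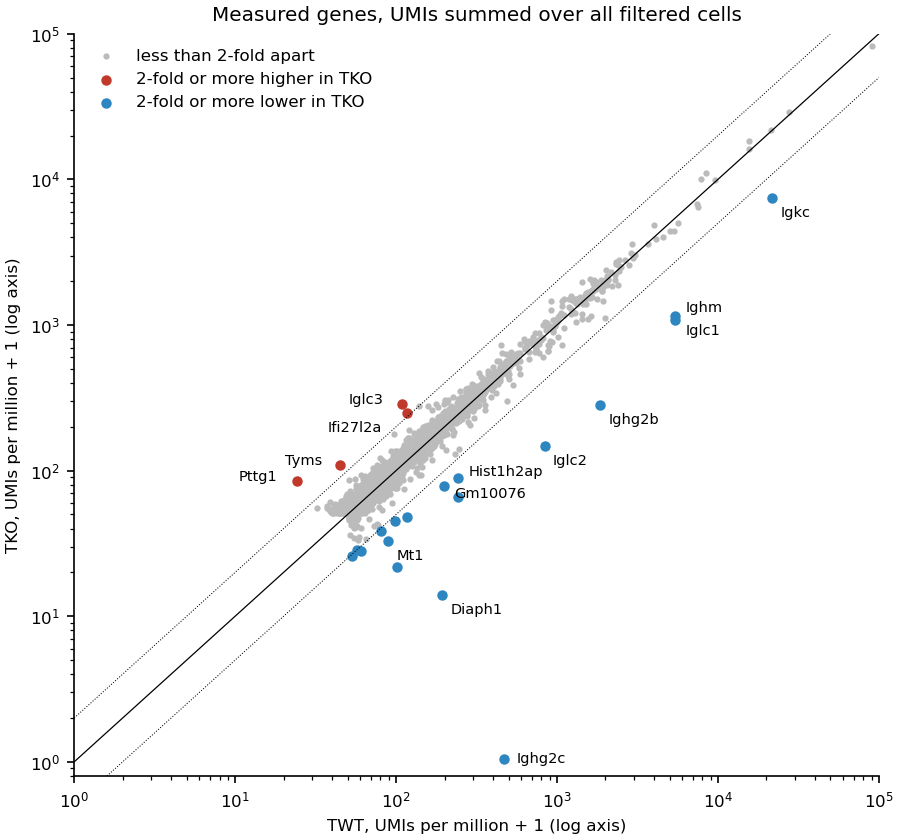
Each point is a measured gene, with its CPM plus 1 summed over all filtered TWT cells (horizontal, log axis) against TKO cells (vertical, log axis); coloured points are genes 2-fold apart. Most genes lie on the diagonal, Ighg2c and Diaph1 lie far below it, and Pttg1, Tyms, Iglc3 and Ifi27l2a lie above it.

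Within the 12 classes with 50 or more cells in both libraries, 683 of 34453 measured pairs of gene and class were called, 1.98%, with 375 higher in TKO (1.09%) and 308 lower (0.894%). These fell on 533 genes, of which 75 were called in 2 or more classes and 16 in 4 or more. Beside Diaph1, the gene lower in most classes was the predicted gene Gm10076, in 11 of 12 classes (log2 ratios -1.64 to -0.85). It had 196.9 CPM in TWT, 77.5 in TKO, 205 in IL6 KO and 93.6 in DKO over all cells. Yipf3, a Golgi membrane protein, was lower in 5 of the 5 classes in which it was measured (-3.47 to -2.10), and over all cells had 41.2 CPM in TWT, 6.33 in TKO, 39.8 in IL6 KO and 52.9 in DKO, so TKO alone was low. Hist1h2ap was lower in 6 of 7 classes. Pttg1 was higher in 8 of 10 classes (0.09 to 3.59), Hist1h4d, a histone H4 gene, in 5 of 10, and Tyms and Ifi27l2a in 4 of 7 and 4 of 8.

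**Figure D3:**
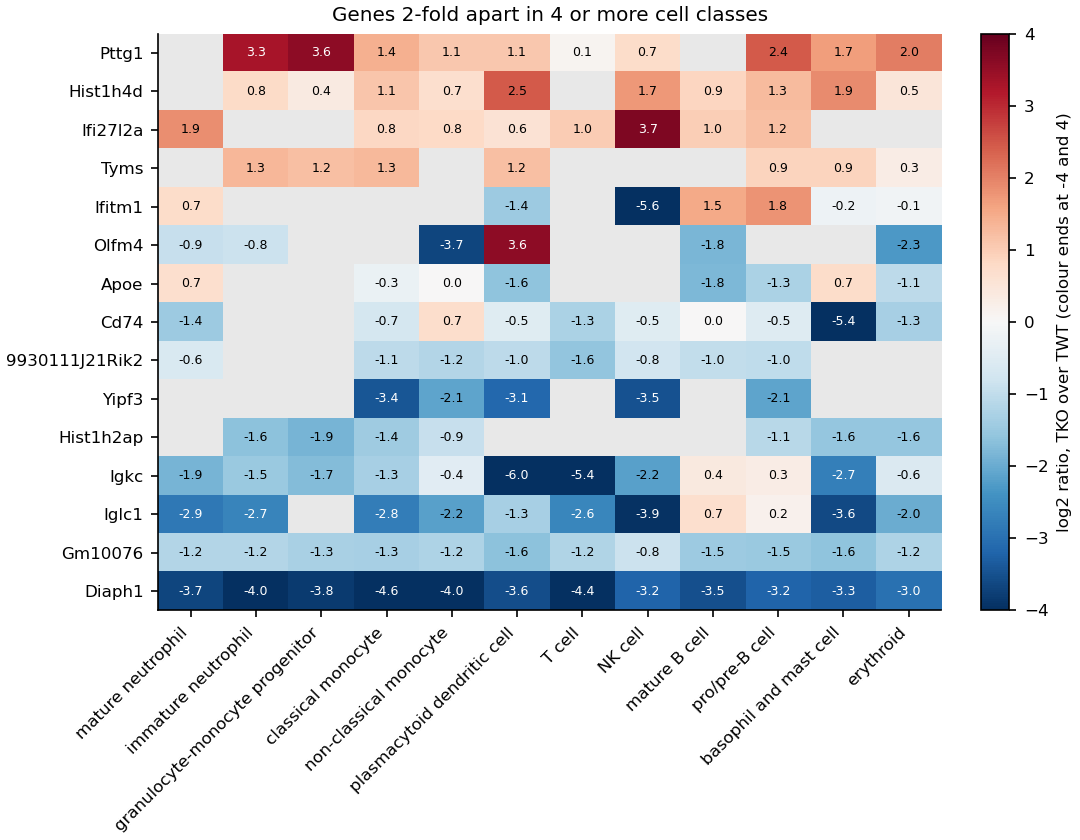
log2 ratio of TKO to TWT, as colour, for 15 of the 16 genes 2-fold apart in 4 or more of the 12 cell classes, with classes along the horizontal axis and grey where a gene was not measured or was a gate marker. Diaph1 is low in every class shown, Gm10076 in 11 of 12 and Yipf3 in 5 of 5, while Pttg1 is high in 8 of 10.

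Some of the called genes lie close to the loci that were targeted. On GRCm38, Pttg1 (chr11:43420250-43426251) starts 51.8 kb from the miR-146a gene and Tyms (chr5:30058202-30073617) 60.5 kb from Il6. Cd14 and Prelid2, each called in 1 class, start 1.21 Mb and 4.02 Mb from Diaph1. Of the measured pairs of gene and class within 10 Mb of miR-146a, 19 of 297 were called, 6.40%, against 1.79% on the rest of chromosome 11. Near Il6, 16 of 436 pairs were called, 3.67%, against 1.04% on the rest of chromosome 5. Near Diaph1, leaving Diaph1 itself out, 9 of 282 were called, 3.19%, against 1.915%. Near miR-146a, Pttg1 was called in 8 classes and the gene 9930111J21Rik2 in 5, and near Il6, Tyms was called in 4. Each class counted as a pair, so a few genes gave many of these calls. Pairs of 1 gene in several classes are not independent, and the part of position in these values was not tested.

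**Figure D4:**
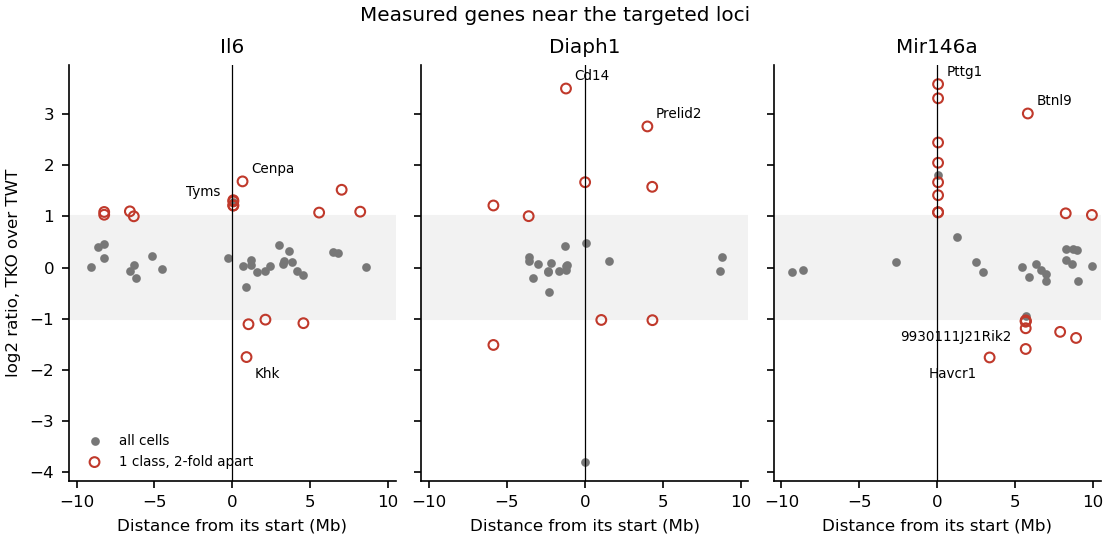
log2 ratio of TKO to TWT (vertical) against distance in Mb from the start of Il6, Diaph1 and the miR-146a gene (horizontal, a panel each). Grey points are measured genes over all cells and open circles are genes 2-fold apart in a class; Pttg1 and Tyms stand next to a targeted locus and above the shaded band of less than 2-fold.

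Mature neutrophils were the class with most cells, and 20 of 2041 genes were called in them, 0.98%, with 8 higher in TKO (0.392%) and 12 lower (0.588%). Cd14, the co-receptor that hands lipopolysaccharide to Toll-like receptor 4, had the highest ratio among these called genes. It had 91 UMIs or 11.1 CPM in TWT, 1256 UMIs or 136 CPM in TKO, 13.8 CPM in IL6 KO and 795 CPM in DKO (ratio of TKO to TWT 12.2, 9.89 to 15.3). It was low in both libraries with mDia1 and miR-146a and high in both without them. At 1000 UMIs per cell, 1.38% of TWT and 12.2% of TKO mature neutrophils held a Cd14 UMI, and without thinning 3.53% and 32.3%. Mature B cells, which should lack Cd14, held one in 0.249% of TWT and 0.804% of TKO cells without thinning, at median depths of 2545 and 2479 UMIs against 3160 and 3348 in mature neutrophils. T cells, which should lack it too, held one in 0.310% of TWT and 4.64% of TKO cells without thinning, and in 0 of 321 and 1 of 194 at 1000 UMIs. Other classes also had more Cd14 in TKO, with 2 and 53 UMIs in plasmacytoid dendritic cells and 0 and 13 in basophils and mast cells. The part of RNA from other cells in these values was not tested. The classical monocyte markers in this class summed to 692 CPM in TWT and 765 in TKO, and 0 of 2 measured ones were called. In immature neutrophils, where Cd14 stayed under the 50 CPM minimum, the values were 2.34 CPM in TWT and 20.9 in TKO, and in classical monocytes 17.3 and 34.7, neither of them called.

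Among the other genes higher in mature neutrophils were interferon-induced genes. Ifi27l2a went from 73.6 CPM in TWT to 269 in TKO, Rtp4, which carries receptors to the cell surface, from 20.8 to 82.2, Isg15, a ubiquitin-like modifier, from 19.8 to 54.2, and Rsad2 (viperin, which blocks viral replication) from 22.9 to 54.2. In IL6 KO these were 133.7, 55.6, 34.7 and 44.8 CPM and in DKO 8.93, 7.44, 11.9 and 10.2, so TKO was highest and DKO lowest for each. Oasl2, a sensor of the same group, had 52.0 and 112 CPM. Anxa6, a calcium-dependent membrane protein, had 9.78 CPM in TWT, 56.9 in TKO, 8.27 in IL6 KO and 41.1 in DKO, and Jun, an AP-1 subunit, had 28.5, 60.9, 32.7 and 221.7. For the whole list of 34 interferon-stimulated genes in the file, 29 of the 33 with a UMI in this class had a higher CPM in TKO. Their summed level was 974 CPM in TWT and 1793 in TKO (ratio 1.84), against 1354 in IL6 KO and 756 in DKO. The median log2 ratio of TKO to TWT of all measured genes in this class was 0.063.

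The genes lower in TKO mature neutrophils had varied roles. Cxcl2, a neutrophil chemoattractant, had 119.5 CPM in TWT, 49.2 in TKO, 199 in IL6 KO and 253.5 in DKO. Ptgs2, the inducible cyclooxygenase, had 80.9 in TWT and 36.0 in TKO, and Thbs1, thrombospondin, 89.7 and 31.9. Dusp1, a phosphatase that ends MAP kinase signalling, had 345 in TWT and 165 in TKO. None of the 3 measured inflammatory cytokines was called, and Cxcl2 was called of 2 measured chemokines. Of 11 measured genes of the Toll-like receptor and NF-kB list, Cd14 alone was called, with Nfkbia at 172 and 187 CPM and Tlr2 at 75.9 and 102. Of the 14 measured genes of the IL-6 family and its targets none was called, with Stat3 at 246 and 248 CPM, Socs3 at 76.4 and 96.0 and Il6ra at 114 and 125.

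**Figure D5:**
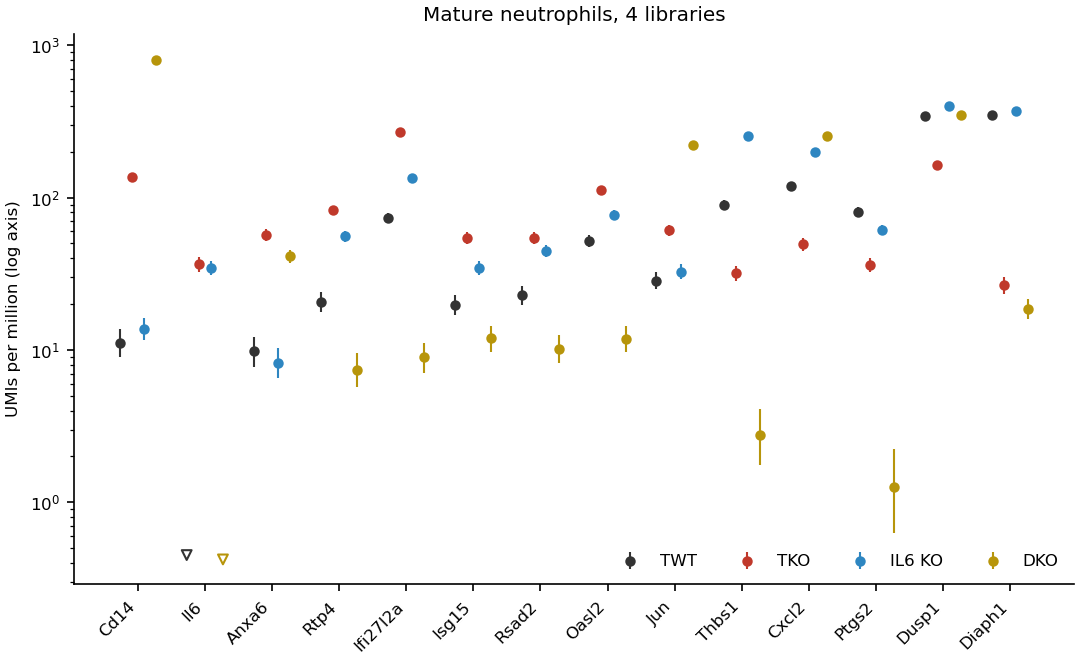
CPM (log axis) in mature neutrophils of the 4 libraries for genes named in the text, with exact Poisson 95% intervals for counting error and open triangles at the upper limit where no UMI was found. Cd14 is high in TKO and DKO and low in TWT and IL6 KO, and the interferon-induced genes are highest in TKO and lowest in DKO.

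The same interferon list gave a higher sum in TKO in most classes. Over all cells, 33 of the 33 genes with a UMI had a higher CPM in TKO, where 44.5% of all genes with a UMI did, and the sum was 727 CPM in TWT and 1120 in TKO (ratio 1.54). The ratio was 1.60 in classical monocytes (1828 to 2931 CPM), 1.58 in non-classical monocytes, 1.64 in T cells, 1.62 in mature B cells and 1.71 in pro/pre-B cells. Plasmacytoid dendritic cells, the main producers of type I interferon, had sums of 4300 and 4267 CPM (0.992), the highest of the classes named here, although 27 of 31 genes with a UMI had a higher CPM in TKO, and basophils and mast cells had a ratio of 0.883. Pooled over the 12 classes, 67 of 71 measured pairs of this list were higher in TKO by any amount. Of all measured pairs, gate markers left out, 55.8% were.

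Immature neutrophils and granulocyte-monocyte progenitors had few called genes. In immature neutrophils 7 of 1948 were called, 0.359%. Pttg1 had 7.83 CPM in TWT, 86.6 in TKO, 6.89 in IL6 KO and 101.6 in DKO, and Tyms had 52.1, 131, 96.7 and 65.6. Lower genes were Diaph1, Gm10076, Hist1h2ap, Igkc and Iglc1. In progenitors 9 of 2362 were called, 0.381%. Pttg1 went from 12.4 to 160 CPM, Tyms from 116 to 270 and Hist1h2ac from 23.7 to 50.6, and Hist1h2ap went from 608 to 165 CPM and Gm10076 from 409 to 165. The 3 measured erythroid markers were all higher in these progenitors, Hbb-bs (beta globin) from 70.8 to 257 CPM, and their part in the class was not tested.

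Classical monocytes, the Ly6C-high cells that leave the marrow to become tissue macrophages, had 15 of 3078 genes called, 0.487%. Higher were Pttg1, Tyms, Isg15 (25.9 to 61.4 CPM), Ifi211 (45.2 to 97.0) and Hist1h4d (80.6 to 176). Irf7, which drives interferon production, had 53.4 and 92.7 CPM. Yipf3 went from 67.5 CPM in TWT to 5.42 in TKO and was 60.8 in IL6 KO and 70.8 in DKO, and a Yipf3 UMI was present in 7.77% of TWT and 0.689% of TKO cells at 1000 UMIs. Non-classical monocytes had 72 of 3018 genes called, 2.39%, and 3.23% were called in IL6 KO against TWT. H2-Q7, a non-classical MHC class I gene, went from 22.8 CPM in TWT to 236 in TKO (ratio 10.3, 5.92 to 19.7) and was 79.4 in IL6 KO and 52.6 in DKO, and its near-identical neighbour H2-Q6 had 3 and 64 UMIs. Reads of such copies can be split between them, so both are uncertain. Jun (35.1 to 150 CPM) and Bcl2a1b, which blocks apoptosis (31.6 to 122), were also higher. None of the 26 G2 and M phase genes had a higher CPM in TKO, where the median log2 ratio of all measured genes in this class was 0.08. The sum of the G2 and M phase genes was 5689 in TWT and 3345 in TKO (0.588). These UMIs came from few cells, those of Cenpf from 14 of 85 TWT and 14 of 179 TKO cells, with 33 of 138 TWT UMIs in 1 cell.

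Plasmacytoid dendritic cells had 95 of 3358 genes called, 2.83%, and rested on 132 TWT and 159 TKO cells. IL6 KO against TWT had 2.29% called in this class. All 26 of the G2 and M phase genes had a higher CPM in TKO, where the median log2 ratio of all measured genes in this class was 0.046. The sum of the G2 and M phase genes was 971 CPM in TWT and 2723 in TKO (2.80). Ube2c, which drives exit from mitosis, had 18.6 and 176 CPM in 12 and 21 cells, with 52 of 193 TKO UMIs in 1 cell, Top2a had 51.2 and 211, and Mki67 61.7 and 191. Genes of neutrophil granules moved with them: Ltf had 304 and 882 CPM and Ngp 1051 and 2303, and the 6 measured immature neutrophil markers were all higher, with a marker sum of 3620 CPM in TWT and 8283 in TKO and none of the 8 at 0. The 4 measured erythroid markers were all lower, with a sum of 1194 and 142 CPM. What these markers contribute to the class was not tested. Khk, ketohexokinase, had 271 CPM in TWT, 80.1 in TKO and 90.8 in IL6 KO.

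T cells had 37 of 2880 genes called, 1.28%. Gzmb, the cytotoxic protease granzyme B, had 17.2 CPM in TWT, 96.6 in TKO, 19.0 in IL6 KO and 457 in DKO, and 7 of 323 TWT and 26 of 194 TKO cells held a UMI. Prelid2, a mitochondrial lipid carrier, had 7.86, 59.0, 5.27 and 103 CPM in the same order, so that both genes were high in TKO and DKO. Xcl1, a chemokine of cytotoxic lymphocytes, went from 194 to 608 CPM, but 249 TKO UMIs were in 1 cell and without it the log2 ratio was 0.94. Bst2 (47.9 to 121 CPM), Zbp1 (27.9 to 58.0) and Ccl4 (26.4 to 66.5) were higher too. Igkc and Ighm were lower, but 6148 of 6682 and 3372 of 3859 TWT UMIs were in 1 cell each. The G2 and M phase sum was 1463 CPM in TWT and 805 in TKO. The 12 T cell markers summed to 6044 and 6875 CPM with none called, and the 2 measured granulocyte-monocyte progenitor markers were both higher, with a sum of 86.5 and 245 CPM, whose part was not tested.

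NK cells had the highest percent called, 211 of 3289 or 6.42%, with 92 TWT and 54 TKO cells. IL6 KO against TWT had 2.45% called in this class. Ifitm1, which blocks virus entry, had 82 UMIs in 8 TWT cells and 1 UMI in 1 TKO cell, Il7r had 126 and 29.6 CPM and Tcf7, a factor of immature and memory lymphocytes, 291 and 112. Gzmb had 65.3 and 207 CPM and Ifitm3 65.3 and 247. Ccl1 had 173 UMIs in TKO, all in 1 cell, and 37 of 39 Mki67 UMIs of TKO were in 1 cell. Of the classical monocyte markers, 5 of the 6 measured were higher in this class, with a sum of 846 CPM in TWT, 1719 in TKO and 854 in IL6 KO, whose part was not tested.

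In mature B cells 18 of 3040 genes were called, 0.592%. Ccnd2, a cyclin that takes B cells into the cycle, had 80.6 CPM in TWT and 198 in TKO, Chchd10, a mitochondrial protein, 210 and 465, and Sox4, a factor of B cell precursors, 20.2 and 63.1. In IL6 KO these were 185, 357 and 41.5 CPM. Vpreb3, a pro/pre-B gate marker, had 416 and 1088 CPM, and the pro/pre-B markers summed to 1687 and 2828 CPM in this class, whose part was not tested. Apoe (398 to 113 CPM), Ahnak (161 to 64.3) and Zbtb20 (323 to 151) were lower. Ifitm1, 24.0 and 70.6 CPM, had a log2 ratio of -0.57 once doublets, 5.72% of TWT and 3.90% of TKO mature B cells, were removed. Pro/pre-B cells had 22 of 3386 genes called, 0.65%. Pttg1 went from 31.2 to 174 CPM, Hist1h4d from 118 to 285 and Ifi27l2a from 145 to 336, and Yipf3 and Gm10076 were lower. Ifitm1, 20.4 and 72.8 CPM, was at -0.26 without doublets.

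Basophils and mast cells had 138 of 3346 genes called, 4.12%, and 3.66% were called in IL6 KO against TWT. Btnl9, a butyrophilin-like membrane protein, had 66.3 CPM in TWT, 542 in TKO, 61.8 in IL6 KO and 94.9 in DKO (ratio of TKO to TWT 8.18, 5.32 to 13.2), and was present in 18 of 74 TWT and 68 of 76 TKO cells. With gate markers and V, D and J segments left out, it had the highest ratio of the called genes in this class. Creld2, an endoplasmic reticulum protein, had 25.9 and 105 CPM, and Elof1, a transcription elongation factor, 23.1, 103 and, in IL6 KO, 99.9. Cd74 was lower, 233 and 4.57 CPM, with 56 of 81 TWT UMIs in 1 cell. The 4 measured erythroid markers were all higher in TKO, with a sum of 343 CPM in TWT, 3122 in TKO and 228 in IL6 KO, and their part was not tested. Erythroid cells had 39 of 2707 genes called, 1.44%. Pttg1 went from 30.7 to 130 CPM and Ifi27 from 44.9 to 97.4, and Fos from 51.7 to 11.6 CPM. All 11 MHC class II genes had a lower CPM in TKO, with a sum of 847 and 320 CPM, and 3 of the 5 measured classical monocyte markers were lower, with a sum of 646 and 370. H2-Eb1, a class II gene, was found in 20 of 178 TWT and 7 of 188 TKO erythroid cells, with 12 of 35 TKO UMIs in 1 cell. The part of RNA from other cells in these values was not tested. The median log2 ratio of all measured genes in erythroid cells was 0.045.

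Plasma cells, 107 in TWT and 37 in TKO, were too few for gene counts, and their antibody genes are given as values. Igha had 92979 UMIs in TWT and 89804 in TKO (ratio of CPM 2.93), Ighm had a ratio of 0.354 and Igkc 1.12. Ighg2c had 17498 UMIs in TWT and 2 in TKO (ratio 0.000347, 4.2e-05 to 0.00125), and Ighg2b a ratio of 0.516. Ighg2c mRNA was thus almost absent from these cells, while Igha took a larger share of their UMIs. Mt1 (953 to 124.5 CPM) and Mt2 (206 to 32.2) were lower. Among genes of plasma cell identity outside the gate, Prdm1 had 65.6 CPM in TWT and 52.2 in TKO and Irf4 84.3 and 83.3. Xbp1, with 1324 and 1181 CPM, and Sdc1, with 207 and 159, were gate markers of this class. Their levels were thus partly set by the choice of cells.

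The other gene lists, pooled over the 12 classes, differed in how often their members were called, beside 1.09% higher and 0.894% lower of all pairs. Gate markers were left out of those shares but kept in the lists, among them the globins, Mpo, Elane, Ltf and Camp. The heme and granule lists are thus not set against a like set of genes. None of the 350 measured pairs of the actin and SRF list and none of the 147 of glycolysis was called, and of 157 pairs of the IL-6 family 2 were higher and 2 lower. Of 73 pairs of miR-146a targets 2 were higher (2.74%) and 3 lower (4.11%). Heme synthesis and globin genes had 9 higher and 10 lower of 61 pairs, MHC class II genes 1 higher and 10 lower of 56, primary granule genes of neutrophils 7 higher and 1 lower of 58, and secondary granule genes 10 higher and 3 lower of 128. A pair could count as measured through the library where it was high alone, so these shares are descriptions. The formins had 12 lower of 32, all of them Diaph1, and Fmnl1 had 130.1 CPM in TWT and 129.8 in TKO over all cells. Immunoglobulin constant genes had 31 lower of 53 and none higher, and the sum of the 13 genes in mature neutrophils, which do not make them, was 851 CPM in TWT and 284 in TKO (0.333). In mature B cells that ratio was 1.21. Their part in classes that do not express them was not tested.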

How the data were processed

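Per the labels and the study's methods, about 10000 marrow cells a library were captured with 10x 3′ chemistry, and the authors deposited whole-number UMI counts per gene and barcode from Cell Ranger 3.0.2 on mm10, and named Seurat 4 for later steps. Here, the counts of 31053 features were summed as CPM over all filtered cells and over cells of 20 marker-gated classes (Python 3.11.15, numpy 2.4.6, scipy 1.17.1, pandas 2.3.3, matplotlib 3.10.9). A cell took the class whose markers were most enriched over their mean share, with at least 3 markers detected; this gate was chosen with the data in view. Doublets were called with Scrublet (scanpy 1.11.5), kept, and removed as an alternative. Gene positions came from GENCODE on GRCm38 and miRNAs from RefSeq. The rules for measured and called genes were tried on simulated counts, and the other steps were not.

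Median depth was 4585.5 UMIs a cell in TWT and 4762 in TKO. Intervals are exact (Poisson, Clopper-Pearson, conditional ratio) at 95% and cover counting error only. No test was made, with 1 library a genotype. The genes named were the 10 highest and 10 lowest called over all cells, the 5 highest and 5 lowest in each class of 50 cells, leaving out V, D and J segments and gate markers, and for lists the members with the largest ratios and the best known. Genes named beyond this rule, among them Gm10076, Yipf3, Khk and Zbtb20, were chosen after their values were seen. Gm10076 and Yipf3 were among the genes called in most classes, and Khk and Zbtb20 were not. The comparison, lists and markers were chosen with earlier results of these data known. Alternatives were another pseudocount, minimum, scaling, cell filter, gate, depth, doublet removal and class weighting. Some genes that the rule picks are not reported here. All columns had a sample.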

Additional observations from a re-analysis of the deposited data

Results flagged for a closer look

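For 11 genes, TKO was 2-fold or more above TWT in one cell class and 2-fold or more below it in another. In 6 of them the counting intervals of both ratios lay beyond 1.5-fold, and these are given first. Each class is 1 library a side, so the difference between classes was not tested. The values are log2 ratios of TKO to TWT. Ifitm1 had 1.78 in pro/pre-B cells and -5.59 in NK cells, and the first was -0.26 without doublets, so the opposite directions were then lost. Olfm4, a neutrophil granule protein, had 3.58 in plasmacytoid dendritic cells and -3.68 in non-classical monocytes, and the first was -0.80 without 1 cell and -1.24 without doublets. Ube2c had 3.17 in plasmacytoid dendritic cells and -2.09 in T cells. Cenpf, a kinetochore protein, had 2.12 in plasmacytoid dendritic cells and -1.87 in non-classical monocytes. Cd79b, a chain of the B cell receptor, had 2.31 in non-classical monocytes and -2.06 in NK cells. The first rested on 6 TWT and 54 TKO UMIs, 12 of the latter in 1 cell, and the part of RNA from B cells was not tested. S100a4, a calcium-binding protein, had 1.31 in NK cells and -1.44 in erythroid cells. The other 5 genes had a lowest and highest ratio of -1.05 and 1.32 (Bst2), -1.06 and 1.14 (Dctn1), -1.51 and 1.21 (Iws1), -1.05 and 1.21 (Man1a), and -1.59 and 1.35 (Mpeg1).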

How the results depend on the processing

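No paired analysis was possible because each genotype was 1 library, and no library could be left out. Counts are genes 2-fold apart. With no CPM minimum, 122 of 12974 measured genes differed over all cells (25 higher, 97 lower), against 22 of 2480 with it. Within classes 1980 differed (1031 higher, 949 lower), from more measured pairs than with the minimum. Among them were 101 in mature neutrophils, 56 in immature neutrophils, 135 in granulocyte-monocyte progenitors, 90 in classical and 216 in non-classical monocytes. Plasmacytoid dendritic cells had 299, T cells 197, mature B cells 178, pro/pre-B cells 141 and erythroid cells 218. With 10 CPM added, 410 differed within classes (225 higher, 185 lower): 30 in non-classical monocytes, 21 in T, 136 in NK, 14 in pro/pre-B, 67 in basophil and mast and 22 in erythroid cells. At TWT class shares, 7 were higher and 11 lower over all cells, 6 list genes were higher, and Igkc was at 0.031 (log2). Without plasma cells, a choice made after seeing the data, 10 differed and 7 were lower. With a stricter gate, 197 differed in non-classical monocytes and 51 in pro/pre-B cells. Without doublets, 59 differed in T, 31 in mature B and 41 in pro/pre-B cells, and Olfm4 in plasmacytoid dendritic cells was at -1.24, Ifitm1 in mature B cells at -0.57 and in pro/pre-B cells at -0.26. Without its top cell, also chosen after seeing the data, that Olfm4 value was -0.80. Within 5 Mb, 9 of 262 pairs (3.435%) differed near Il6 and 9 of 76 (11.84%) near miR-146a. Those near miR-146a were Pttg1 in 8 classes and Havcr1 in plasmacytoid dendritic cells. The progenitor share ratio was 1.11 with a 200-gene filter, and that of non-classical monocytes 2.89 at 1000 UMIs a cell. The cause of these changes was not tested. Genes were compared only in the 12 classes with 50 cells or more in both libraries.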

Other observations

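The 13 mitochondrially encoded mRNAs, which encode subunits of the respiratory chain, had a lower level in TKO in most classes. Their summed level over all cells had a ratio of TKO to TWT of 0.852, and in mature neutrophils of 0.689. All 13 had a lower CPM in TKO in 10 of the 12 classes, against 12 of 13 in immature neutrophils and 8 of 13 in non-classical monocytes. In mature neutrophils mt-Nd1 had 182 CPM in TWT, 76.7 in TKO, 119 in IL6 KO and 105.6 in DKO, and mt-Nd3 had 98.4, 37.5, 72.1 and 31.4. Only these values passed the 2-fold rule, 2 of 140 measured pairs of gene and class. Of the 140 pairs, 6 were higher in TKO by any amount, against 55.8% of all measured pairs with gate markers left out.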
